A study of Mus musculus with 6 samples.

Results

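Osteoclasts are multinucleated because their mononuclear precursors fuse, and 9 genes that encode membrane proteins of this step are described here: Dcstamp, Ocstamp, Tm4sf19, Cd9, Cd81, Adam8, Cd47, Sirpa and Cd44. They were chosen by name, and all 9 were found once by symbol among the 24940 genes of the deposited table. RNA was sequenced from bone marrow-derived macrophages (BMMs), the osteoclast precursors, of 6- to 8-week-old mice in 6 libraries, 2 for each of 3 conditions. BMMs labelled RANKL + LEA received 100 ng/mL RANKL, the cytokine that drives osteoclast formation, with 10 μg/mL LEA, the ethyl acetate fraction of a water extract of the shiitake mushroom Lentinula edodes. BMMs labelled RANKL received 100 ng/mL RANKL alone, and BMMs labelled No RANKL received neither. M-CSF, which keeps macrophages alive, was used at 30 ng/mL, and no engineered allele is named in the labels. The labels name C57BL/6 mice and TRIzol, whereas the study's methods name ICR male mice and an RNeasy kit. For the RNA-seq samples, neither the hour of harvest nor a solvent control is stated in the sources used here. Whether both libraries of a group stem from different cultures or animals is not said there, so a p-value covers only the spread among these libraries, which may be technical.

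When RANKL and M-CSF act together on macrophages, the cells approach each other, attach through surface receptors and merge their membranes. DC-STAMP (Dcstamp) and OC-STAMP (Ocstamp) are related multi-pass membrane proteins without which mouse osteoclasts stay mononuclear. TM4SF19 is a 4-pass protein of the L6 family, distant kin of the tetraspanins. CD9 and CD81 are tetraspanins, which organise other membrane proteins into patches, and CD9 on the egg is also needed for sperm-egg fusion. ADAM8 is a membrane-anchored metalloprotease with a disintegrin domain. CD47 is the ligand of SIRPα (Sirpa), an inhibitory receptor of macrophages, and the pair is better known for blocking phagocytosis. CD44 binds hyaluronan and osteopontin.

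Values are FPKM, read counts scaled to exon length and to library size, which HOMER computed from exons on both strands (a single RefSeq transcript for each gene, mm10 genome). Depth, read from the step that 1 read makes in the low values, was 46381687 to 49588784 reads per library, with 36610113 to 40025958 reads on genes. A gene was called changed at a limma adjusted p (Benjamini-Hochberg over the 11905 genes that reached 0.5 FPKM in 2 or more libraries) under 0.05 and a fold change of 1.5 or more, which are the cut-offs in the study's methods. SE is the standard error of a log2 fold change in this fit. Fold changes are on the scale of log2(FPKM + 0.1). All 9 genes passed the filter, Ocstamp only through its 4 libraries with RANKL. Macrophage markers (8 of 8 detected, among them Adgre1) summed to 5672 to 7251 FPKM with RANKL + LEA, 3710 to 4400 FPKM with RANKL and 9907 to 13491 FPKM with No RANKL. Most of this sum was Lyz2, and the other 7 summed to 1210 and 1175 FPKM with RANKL + LEA, 1238 and 1171 FPKM with RANKL, and 1823 and 1913 FPKM with No RANKL, so that without Lyz2 the LEA and RANKL libraries overlapped. Of the 8 macrophage markers, 7 fell with RANKL, and 4 were called higher with LEA (Adgre1, Lyz2, Fcgr1 and Mertk). Csf1r (log2 fold change −0.12), Cd68 (−0.34), Itgam (0.44) and Cd14 (0.57) were not called with LEA. Osteoclast markers (8 of 8, among them Acp5 and Ctsk) summed to 2504 to 2630 FPKM with RANKL + LEA, 5040 to 5854 FPKM with RANKL and 26.4 to 28.2 FPKM with No RANKL, and all 8 rose with RANKL and were lower with LEA. Ctsk, Calcr, Oscar and Car2 passed the filter only through their libraries with RANKL, which favours a rise. Markers of B cells, T and NK cells, erythroid cells and mast cells summed to less than 1 FPKM in every library, with Pax5 at 0. Those of neutrophils, dendritic cells, endothelium, and osteoblasts and stroma stayed under 8 FPKM per library. These are bulk libraries, in which fewer cells of a kind and less RNA per cell cannot be told apart, and the part of these marker differences in the results on the 9 genes was not tested.

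Promoter windows are shown first, because Tm4sf19 on the one hand and Cd81 and Adam8 on the other moved in opposite directions, and that of Cd44 because it held the most matches. Of the 9 genes, 6 had a window in the RefSeq table of GRCm38.p6. Dcstamp, Ocstamp and Sirpa had none, so Tm4sf19 is the only gene shown that rose with RANKL. A link between the matches and the direction of change was not tested. The 250 bases before the transcription start were searched on both strands for GGAA, the core that the NFAT factors and PU.1 recognise, and for the longer forms GGAAA (NFAT) and GAGGAA (PU.1), both of which contain it, as well as TGANTCA (AP-1) and TCANNTGA (an E-box of MITF). In the sequences below, written 5′ to 3′ on the strand of the gene, capitals mark every match. The windows lie at chr16:32400256-32400505 (plus strand, Tm4sf19), chr7:143052500-143052749 (plus strand, Cd81), chr7:139992563-139992812 (minus strand, Adam8) and chr2:102901666-102901915 (minus strand, Cd44).
Tm4sf19: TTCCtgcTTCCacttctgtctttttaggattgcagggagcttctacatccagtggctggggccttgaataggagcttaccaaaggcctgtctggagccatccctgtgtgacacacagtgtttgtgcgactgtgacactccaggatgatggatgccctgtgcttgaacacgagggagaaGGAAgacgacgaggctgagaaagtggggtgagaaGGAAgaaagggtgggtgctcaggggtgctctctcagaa
Cd81: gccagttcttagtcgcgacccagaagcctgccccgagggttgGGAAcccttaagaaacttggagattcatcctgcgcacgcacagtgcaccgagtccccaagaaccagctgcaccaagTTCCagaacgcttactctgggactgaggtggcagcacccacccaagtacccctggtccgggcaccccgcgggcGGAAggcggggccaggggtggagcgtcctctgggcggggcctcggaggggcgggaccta
Adam8: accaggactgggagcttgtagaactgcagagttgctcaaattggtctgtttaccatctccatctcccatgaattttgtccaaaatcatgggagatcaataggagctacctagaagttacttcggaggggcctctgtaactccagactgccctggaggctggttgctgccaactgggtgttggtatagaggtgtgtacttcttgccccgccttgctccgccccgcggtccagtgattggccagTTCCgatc
Cd44: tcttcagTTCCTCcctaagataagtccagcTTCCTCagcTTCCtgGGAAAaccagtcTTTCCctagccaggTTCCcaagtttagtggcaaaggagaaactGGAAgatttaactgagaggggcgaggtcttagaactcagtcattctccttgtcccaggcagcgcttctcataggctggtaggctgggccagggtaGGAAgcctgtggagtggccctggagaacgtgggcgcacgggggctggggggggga

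The Tm4sf19 window held 4 GGAA cores, the Cd81 window 3, the Adam8 window 1 and the Cd44 window 8. GGAA is common, with at least 1 match in 93.4% of the 32851 windows of that length. The longer NFAT form GGAAA, found in 55.6% of all windows, was present in those of Cd44 and Cd9, with 2 matches each, and in none of Tm4sf19, Cd81, Adam8 and Cd47. The PU.1 form GAGGAA, in 23.3% of windows, occurred only in that of Cd44 among the 6, with 2 matches. AP-1 (6.75% of windows) and the MITF E-box (7.09%) had no match in any of the 6, which says only that these letters are not in these 250 bases. CpG dinucleotides numbered 4 in the window of Tm4sf19, 5 in that of Cd44, 6 in that of Adam8, 16 in those of Cd81 and Cd9 and 30 in that of Cd47, with a median of 6 over all windows. Cd47 thus had more CpGs than 94.1% of windows and Tm4sf19 more than 37.8%.

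Expression of the fusion genes with RANKL alone was first compared with that of BMMs without RANKL. Dcstamp, Ocstamp and Tm4sf19 rose, Cd81 and Adam8 fell, and Cd9, Cd47, Sirpa and Cd44 did not pass both limits. Of the 9 genes, 5 were called, against 35.7% of all genes tested. The 3 that rose compare with 17.8% of all genes, and the 2 that fell with 17.8% of all genes. Among the 3, Ocstamp passed the filter only through its libraries with RANKL, which favours a rise. The median log2 fold change was 0.27 over the 9 genes and 0.00 over all genes tested.

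Dcstamp (transcript NM_001289512, chr15:39745930-39760938, 3 exons) was at 105.7 and 89.6 FPKM in the RANKL libraries, against 1.42 and 1.33 FPKM in the No RANKL libraries. The libraries of the 2 conditions were far apart, with 8500 and 7003 reads against 114 and 108 reads. The log2 fold change was 6.05 (SE 0.14, adjusted p = 6.6e-08, limma). Ocstamp (NM_029021, chr2:165395450-165400394, 3 exons) was at 84.8 and 76.7 FPKM with RANKL and at 0.226 and 0.191 FPKM with No RANKL. The No RANKL values rest on only 21 and 18 reads, so that the gene was close to the floor of the assay without RANKL. Its log2 fold change of 8.04 (SE 0.12, adjusted p = 1.2e-08, limma) was the largest of the 9, but depended on the pseudocount, with 6.08 at 1 FPKM and 8.53 at 0.01 FPKM added. Tm4sf19 (NM_001160402, chr16:32400506-32408227, 5 exons) was at 73.8 and 61.5 FPKM with RANKL and at 0.536 and 0.646 FPKM with No RANKL. With 32 and 39 reads it too was almost silent without RANKL, and its log2 fold change was 6.61 (SE 0.13, adjusted p = 3.8e-08, limma). With 1 FPKM added the log2 fold change of Tm4sf19 was 5.43, and that of Dcstamp was 5.37. In the order of all genes above 0, Dcstamp stood above 96.9% with RANKL and above 40.04% with No RANKL, Ocstamp above 96.1% and 26.6%, and Tm4sf19 above 95.2% and 33.7%. Each therefore lay below the middle of the detected genes without RANKL and among the upper ones with it.

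**Figure D1:**
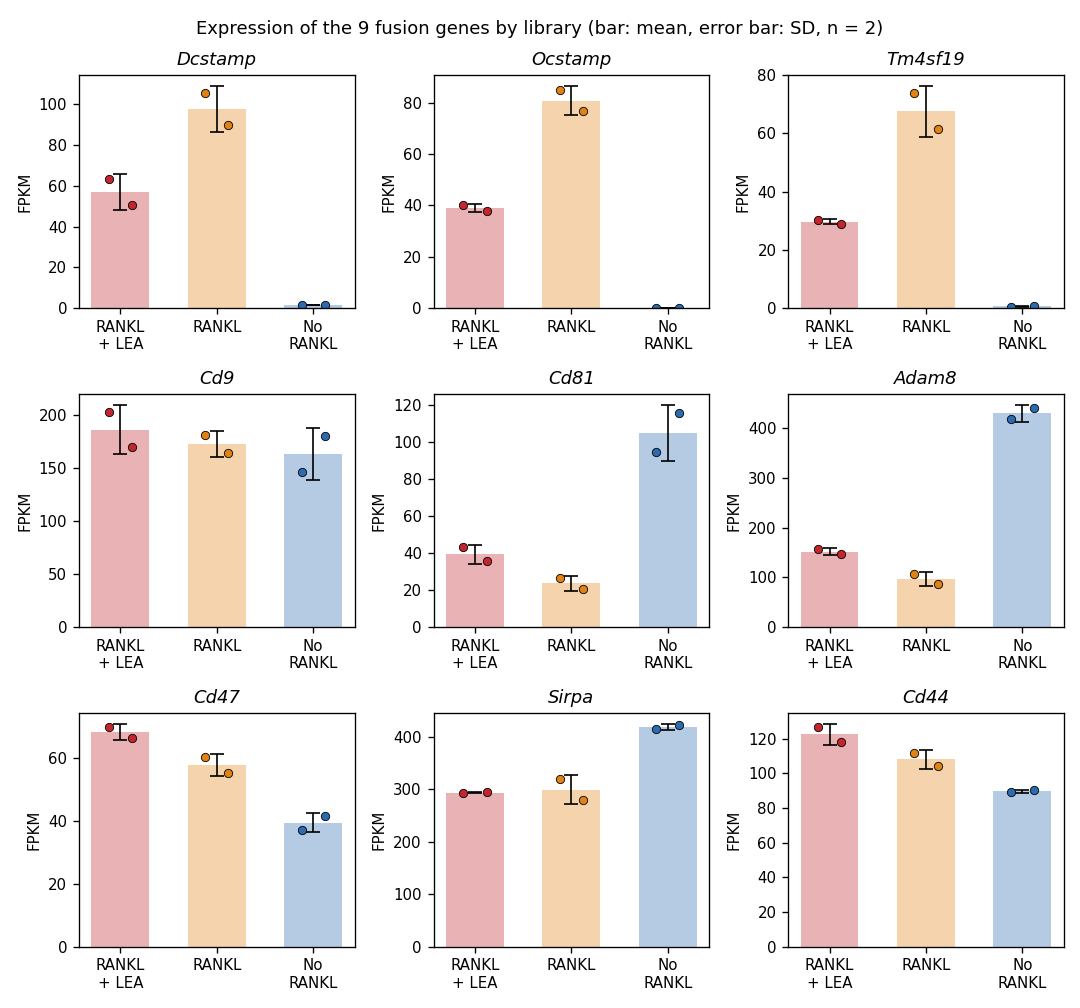
FPKM (vertical axes, starting at 0) of the 9 fusion genes in the libraries with RANKL + LEA, RANKL and No RANKL; points are libraries, bars the means and error bars the SD (n = 2). Dcstamp, Ocstamp and Tm4sf19 are near 0 without RANKL and highest with RANKL alone, whereas Cd81 and Adam8 are highest without RANKL and lowest with RANKL alone.

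Cd81 and Adam8 went the other way. Cd81 (NM_133655, chr7:143052750-143067930) was at 26.6 and 20.9 FPKM with RANKL and at 94.6 and 115.8 FPKM with No RANKL, with no overlap. Its log2 fold change was −2.15 (SE 0.16, adjusted p = 2.2e-05, limma), a 4.42-fold lower level. Adam8 (NM_001291066, chr7:139978932-139992562) was at 107.1 and 87.8 FPKM with RANKL and at 417.5 and 440.9 FPKM with No RANKL, also with no overlap, as for 75.0% of all genes. It stood above 99.2% of detected genes in BMMs without RANKL, and its log2 fold change was −2.14 (SE 0.12, adjusted p = 4.7e-06, limma). The tetraspanins CD9 and CD81 thus came apart at the transcript level. Cd9 (NM_007657, chr6:125460266-125494760) was at 182.0 and 164.8 FPKM with RANKL and at 146.4 and 181.0 FPKM with No RANKL, and these ranges overlapped. Its log2 fold change was 0.09 (95% interval −0.24 to 0.41, adjusted p = 0.629, limma), so a change of 1.5-fold in either direction lies outside the interval. Within a library, the FPKM of Cd9 was 6.85 and 7.88 times that of Cd81 with RANKL, against 1.55 and 1.56 times with No RANKL. The antisense gene R74862, which overlaps the start of Cd81, was at no more than 1.87 FPKM in any library, and the microRNA gene Mir7062, inside Adam8 on the same strand, was at no more than 8.70 FPKM. No other gene of the table overlapped one of the 9.

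The receptor pair CD47 and SIRPα differed in smaller steps. Cd47 (NM_010581, chr16:49855654-49911683) was at 60.3 and 55.3 FPKM with RANKL and at 37.3 and 41.6 FPKM with No RANKL, without overlap. The log2 fold change was 0.55 (SE 0.11, adjusted p = 0.00325, limma), which is 1.47-fold and just short of the fold limit, and it crossed that limit without RANKL replicate 2 (0.61) or without No RANKL replicate 2 (0.63). Sirpa (NM_001355160, chr2:129595462-129632228) was at 319.3 and 279.4 FPKM with RANKL and at 414.5 and 422.1 FPKM with No RANKL. Its log2 fold change of −0.49 (SE 0.10, adjusted p = 0.00567, limma) also stayed short of 1.5-fold. Sirpa is one of several related genes, and its nearest relatives in the table, Sirpb1a and Sirpb1b, had group means of 1.05 to 1.96 FPKM, and the share of their reads in the Sirpa values was not tested, which leaves these uncertain to that extent. The FPKM of the receptor was 5.30 and 5.05 times that of its ligand with RANKL, against 11.1 and 10.1 times with No RANKL. Cd44 (NM_001039151, chr2:102811142-102901665) was at 111.9 and 104.3 FPKM with RANKL and at 89.0 and 90.4 FPKM with No RANKL. The libraries did not overlap, as for 75.0% of all genes, but the log2 fold change of 0.27 (95% interval 0.04 to 0.49, adjusted p = 0.0502, limma) passed neither limit. Cd44 has 8 protein-coding transcripts in GENCODE M21 and Cd47 and Sirpa have 9 each, of which the table keeps 1, so that a shift between isoforms would not be seen here.

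The effect of LEA was then examined in the presence of RANKL. Dcstamp, Ocstamp and Tm4sf19 were lower with RANKL + LEA than with RANKL, Cd81 and Adam8 were higher, and Cd9, Cd47, Sirpa and Cd44 were not called. Of the 9 genes, 5 were called, against 6.31% of all genes tested. The 3 lower genes compare with 1.77% of all genes and the 2 higher ones with 4.54%. Over the whole table LEA had 540 genes higher and 211 lower, or 439 and 328 after quantile normalization, which left the 5 calls among the 9 genes in place. The RANKL libraries serve in this comparison and in the one against No RANKL, so the 2 sets of values are not independent.

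Ocstamp was at 39.996 and 37.9 FPKM with RANKL + LEA, against 84.8 and 76.7 FPKM with RANKL. The log2 fold change was −1.05 (SE 0.12, adjusted p = 0.00372, limma), or 2.07-fold lower. Tm4sf19 was at 30.4 and 29.1 FPKM with RANKL + LEA, against 73.8 and 61.5 FPKM with RANKL, and had the largest difference of the 9 genes (log2 fold change −1.18, SE 0.13, adjusted p = 0.00420, limma). In both genes every LEA library lay below every RANKL library, and both calls held without any 1 of the 6 libraries (highest limma adjusted p 0.0495 for Ocstamp and 0.0488 for Tm4sf19). Libraries of these conditions did not overlap in 50.7% of all genes tested. Dcstamp was at 63.2 and 50.5 FPKM with RANKL + LEA, against 105.7 and 89.6 FPKM with RANKL, again without overlap (log2 fold change −0.78, SE 0.14, adjusted p = 0.0183, limma). This call was less firm, since it ended without the one or the other RANKL library or without RANKL + LEA replicate 2 (highest limma adjusted p 0.104). By qRT-PCR of representative osteoclast genes in independent experiments, the study reported that its gene set results with LEA were borne out. Its methods list primers for DC-stamp and OC-stamp, and its text gives no value for either gene. The FPKM of Ocstamp was 0.633 and 0.751 times that of Dcstamp with RANKL + LEA, against 0.803 and 0.856 times with RANKL. That of Tm4sf19 was 0.481 and 0.575 times that of Dcstamp with RANKL + LEA, against 0.698 and 0.686 times with RANKL. These ratios do not change when a whole library is multiplied by 1 factor, but quantile normalization could change them. In both ratios the conditions did not overlap, but with 2 libraries each no test was made of them.

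**Figure D2:**
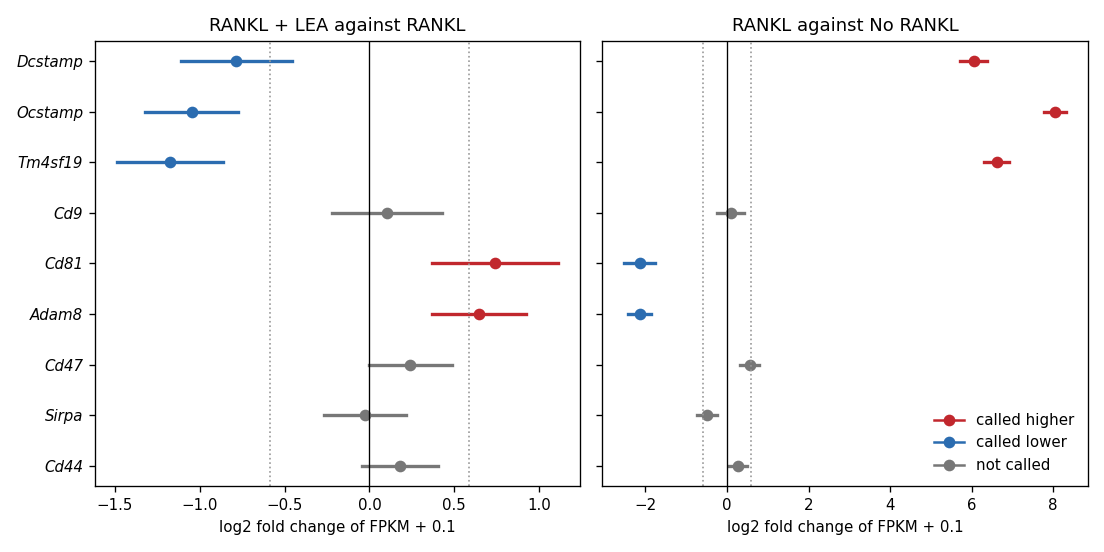
Log2 fold change of FPKM + 0.1 for the 9 genes (points) with 95% intervals from limma (lines), for RANKL + LEA against RANKL and for RANKL against No RANKL; dotted lines mark 1.5-fold. The horizontal scales differ: the differences with LEA lie between −1.18 and 0.74, and those with RANKL between −2.15 and 8.04.

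Cd81 was at 43.3 and 35.9 FPKM with RANKL + LEA, against 26.6 and 20.9 FPKM with RANKL (log2 fold change 0.74, SE 0.16, adjusted p = 0.0328, limma). Adam8 was at 157.2 and 146.7 FPKM with RANKL + LEA, against 107.1 and 87.8 FPKM with RANKL (log2 fold change 0.65, SE 0.12, adjusted p = 0.0207, limma). Both rose without overlap, which 50.7% of all genes also lacked, but both calls ended without any 1 of the 4 libraries compared. With 1 library left out, the log2 fold change was 0.57 to 0.91 for Cd81 and 0.50 to 0.79 for Adam8. With no filter on low values, which adds genes to the adjustment, the calls of Dcstamp (adjusted p = 0.0702), Cd81 (adjusted p = 0.105) and Adam8 (adjusted p = 0.0739) ended by limma. The Cd81 call also ended when limma was run with no trend (adjusted p = 0.0691). Cd9 was at 203.0 and 170.1 FPKM with RANKL + LEA, against 182.0 and 164.8 FPKM with RANKL, and overlapped (log2 fold change 0.10, 95% interval −0.22 to 0.43, adjusted p = 0.735, limma). The ratio of Cd9 to Cd81 was 4.69 and 4.74 with RANKL + LEA, against 6.85 and 7.88 with RANKL.

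Cd47, Sirpa and Cd44 showed no called difference with LEA. Cd47 was at 70.1 and 66.5 FPKM with RANKL + LEA, against 60.3 and 55.3 FPKM with RANKL (log2 fold change 0.24, 95% interval from just under 0 to 0.49, adjusted p = 0.219, limma). Cd44 was at 126.7 and 118.4 FPKM with RANKL + LEA, against 111.9 and 104.3 FPKM with RANKL (log2 fold change 0.18, 95% interval −0.04 to 0.40, adjusted p = 0.318, limma). Neither gene overlapped between the conditions, as was the case for 50.7% of all genes. Sirpa was at 292.1 and 293.7 FPKM with RANKL + LEA, within the 319.3 and 279.4 FPKM of the RANKL libraries (log2 fold change −0.03, 95% interval −0.27 to 0.21, adjusted p = 0.915, limma). For all 3 genes the interval stays inside 1.5-fold in both directions. The FPKM of Sirpa was 4.17 and 4.42 times that of Cd47 with RANKL + LEA, against 5.30 and 5.05 times with RANKL.

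**Figure D3:**
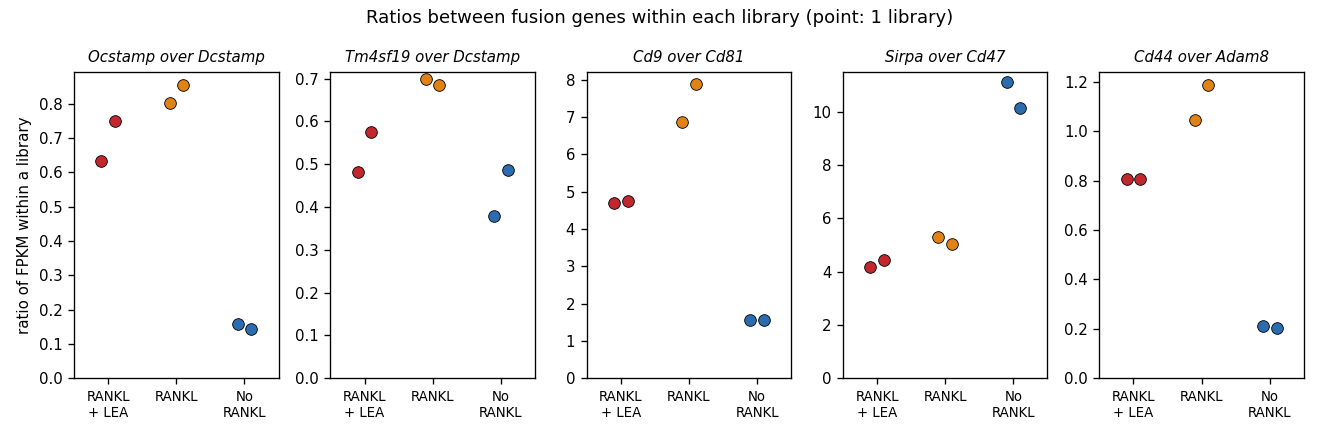
Ratio of the FPKM of 2 fusion genes within each library (vertical axes, starting at 0; 1 point per library) with RANKL + LEA, RANKL and No RANKL. Cd9 over Cd81 is 4.69 and 4.74 with RANKL + LEA, 6.85 and 7.88 with RANKL and 1.55 and 1.56 with No RANKL.

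Against BMMs without RANKL, cells given RANKL + LEA still had much higher levels of the 3 induced genes. Of the 9 genes, 6 were called in this comparison, against 27.3% of all genes tested. The 4 higher genes compare with 15.5% of all genes and the 2 lower ones with 11.8%. Among the 4 is Ocstamp, whose passage through the filter rests on its libraries with RANKL and favours a higher level. All but Cd9 did not overlap, as was the case for 70.8% of all genes. Ocstamp, at 39.0 ± 1.45 FPKM with RANKL + LEA and 0.209 ± 0.0247 FPKM with No RANKL (SD, n = 2 each), had a log2 fold change of 6.99 (SE 0.12, adjusted p = 3.6e-08, limma). Tm4sf19 had 29.7 ± 0.953 FPKM with RANKL + LEA and 0.591 ± 0.0778 FPKM with No RANKL (SD, n = 2 each), a log2 fold change of 5.44 (SE 0.13, adjusted p = 1.4e-07, limma). Dcstamp had 56.8 ± 8.95 FPKM with RANKL + LEA and 1.37 ± 0.0643 FPKM with No RANKL (SD, n = 2 each), a log2 fold change of 5.26 (SE 0.14, adjusted p = 2.1e-07, limma). Cd81 (log2 fold change −1.41, SE 0.16, adjusted p = 3.3e-04, limma) and Adam8 (2.82-fold, adjusted p = 5.1e-05, limma) were still lower. Cd47 was called here, at 68.3 ± 2.51 FPKM with RANKL + LEA and 39.4 ± 3.07 FPKM with No RANKL (SD, n = 2 each, log2 fold change 0.79, SE 0.11, adjusted p = 7.5e-04, limma). Cd44 (log2 fold change 0.45, SE 0.10, adjusted p = 0.00771, limma) and Sirpa (log2 fold change −0.51, SE 0.10, adjusted p = 0.00587, limma) stayed short of 1.5-fold, and Cd9 was not called (log2 fold change 0.19, 95% interval −0.13 to 0.52, adjusted p = 0.317, limma).

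Since FPKM is per kilobase of exon, levels can also be ordered between the genes. With RANKL + LEA the order by mean FPKM was Sirpa (293 ± 1.13), Cd9 (187 ± 23.2), Adam8 (152 ± 7.39), Cd44 (123 ± 5.86), Cd47 (68.3 ± 2.51), Dcstamp (56.8 ± 8.95), Cd81 (39.6 ± 5.18), Ocstamp (39.0 ± 1.45) and Tm4sf19 (29.7 ± 0.953; SD, n = 2 each). With RANKL alone it was Sirpa (299 ± 28.2), Cd9 (173 ± 12.2), Cd44 (108 ± 5.35), Dcstamp (97.6 ± 11.4), Adam8 (97.5 ± 13.7), Ocstamp (80.8 ± 5.74), Tm4sf19 (67.6 ± 8.72), Cd47 (57.8 ± 3.53) and Cd81 (23.7 ± 3.99). Cd44, Dcstamp and Adam8 overlapped in the RANKL libraries, as did Cd81 and Ocstamp in the LEA libraries, and their order is not set. With No RANKL, Adam8 (429 ± 16.5) and Sirpa (418 ± 5.40) led and overlapped, followed by Cd9 (164 ± 24.5), Cd81 (105 ± 15.0), Cd44 (89.7 ± 0.996), Cd47 (39.4 ± 3.07), Dcstamp (1.37 ± 0.0643), Tm4sf19 (0.591 ± 0.0778) and Ocstamp (0.209 ± 0.0247). Dcstamp, Ocstamp and Tm4sf19 together made up 13.0% and 12.4% of the summed FPKM of the 9 genes with RANKL + LEA, 24.7% and 24.2% with RANKL, and 0.181% and 0.167% with No RANKL.

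Other genes linked to fusion were taken from lists that follow the partners and relatives of the 9. Of 41 further genes of macrophage and osteoclast fusion, 37 were tested, of which 16 rose and 13 fell with RANKL (median log2 fold change −0.26, against 0.00 over all genes). Over all genes tested, 17.8% rose and 17.8% fell with RANKL, and 4.54% were higher and 1.77% lower with LEA, and the counts of each list stand beside these shares. Atp6v0d2, a subunit of the proton pump that mouse osteoclasts need to fuse, averaged 315.6 ± 12.6 FPKM with RANKL and 2.27 ± 0.0665 FPKM with No RANKL (SD, n = 2 each). Siglec15, a sialic acid receptor of osteoclast precursors, averaged 30.3 ± 2.96 FPKM with RANKL and 0.0715 ± 0.0134 FPKM with No RANKL, and Itgb3, the β3 integrin chain, averaged 112.1 ± 2.60 FPKM with RANKL and 1.39 ± 0.0933 FPKM with No RANKL (SD, n = 2 each). Siglec15 passed the filter only through its libraries with RANKL, which favours a rise. In the same list Cd36, a scavenger receptor of macrophages, fell (log2 fold change −4.74, SE 0.12, adjusted p = 8.0e-08, limma). The list therefore moved in both directions. With LEA added, 9 of these 37 genes were higher and 8 lower than with RANKL (4.54% and 1.77% of all genes, median log2 fold change 0.09, against 0.05 over all genes). Atp6v0d2 was lower at 170.2 ± 6.51 FPKM with RANKL + LEA (log2 fold change −0.89, SE 0.10, adjusted p = 0.00337, limma), a call that held without any 1 library. Siglec15 was lower at 14.2 ± 0.552 FPKM (adjusted p = 0.00550 by limma), but not without RANKL replicate 1 (adjusted p = 0.0571, limma), and Itgb3 was lower at 61.3 ± 1.73 FPKM but not without RANKL replicate 2 (adjusted p = 0.0505, limma). Mmp14, a membrane-bound metalloprotease, was at 74.1 ± 3.64 FPKM with RANKL + LEA and 129.3 ± 8.53 FPKM with RANKL, and its call ended without any 1 of these 4 libraries (SD, n = 2 each, highest limma adjusted p 0.107). Cd36 was higher at 42.9 ± 3.56 FPKM with RANKL + LEA, against 17.4 ± 0.742 FPKM with RANKL (SD, n = 2 each), in every fit with 1 library left out.

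Relatives of the 9 genes within their own families were listed too. Of 29 other tetraspanins 17 were tested, of which 4 rose with RANKL (Cd82, Tspan5, Tspan7 and, named after its values were seen, Cd63) and 4 fell (Cd53, Tspan13, Tspan33 and, named after its values were seen, Rom1). Over all genes tested, 17.8% rose and 17.8% fell. Tspan7, at 0 FPKM in both No RANKL libraries, passed the filter only through its libraries with RANKL, which favours a rise. The call of Cd63 ended without No RANKL replicate 1 or RANKL replicate 1, and that of Rom1 without No RANKL replicate 1 or with a pseudocount of 1 FPKM. Cd82 averaged 51.5 ± 5.22 FPKM with RANKL and 8.63 ± 0.800 FPKM with No RANKL, and Cd53, a tetraspanin of leukocytes, averaged 39.4 ± 2.03 FPKM with RANKL and 112.4 ± 8.53 FPKM with No RANKL (SD, n = 2 each). With LEA, Tspan32 was higher and Tspan7 lower, but neither call held in all fits with 1 library left out (highest limma adjusted p 0.0945 for Tspan32 and 0.12 for Tspan7). That of Tspan32 ended without the one or the other RANKL library or without RANKL + LEA replicate 1, and that of Tspan7 without any 1 of the 4 libraries compared or with a pseudocount of 0.01 FPKM. None of the 4 other L6 family genes, relatives of Tm4sf19, passed the filter, and none of their group means exceeded 0.441 FPKM, that of Tm4sf5 with RANKL. Of 11 other ADAM proteases 5 were tested and 4 fell with RANKL, as Adam8 did, against 17.8% of all genes. Adam15 averaged 30.0 ± 0.624 FPKM with RANKL and 199.5 ± 4.93 FPKM with No RANKL (SD, n = 2 each), and with LEA it was higher at 53.2 ± 2.63 FPKM (log2 fold change 0.83, SE 0.10, adjusted p = 0.00423, limma). With RANKL the log2 fold change was −0.62 for Adam9 and −0.64 for Adam17. These calls ended without RANKL replicate 2, that of Adam9 also without No RANKL replicate 2, since the change then fell short of 1.5-fold.

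**Figure D4:**
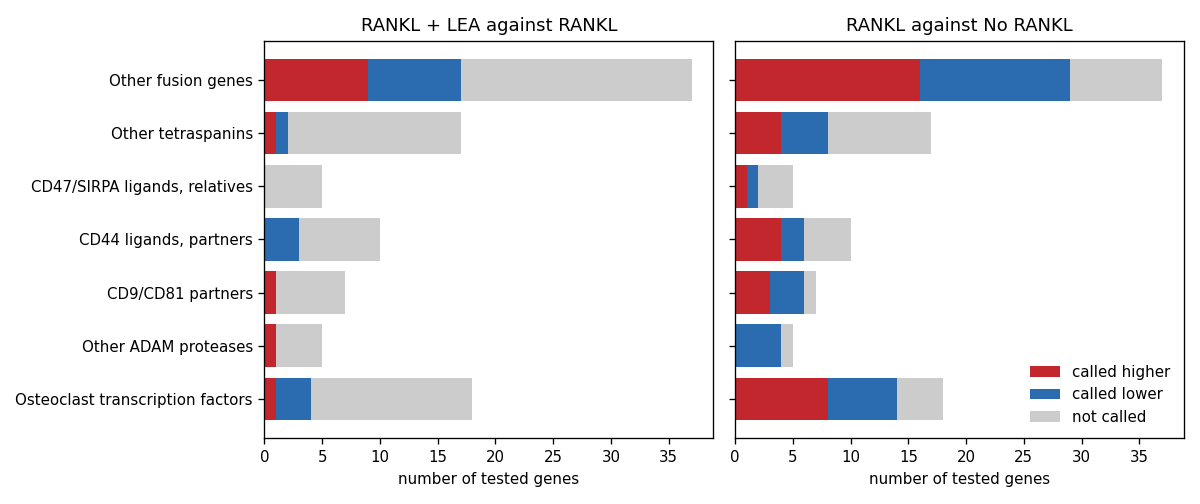
Number of tested genes (horizontal axis) called higher, called lower or not called in 7 lists of partners and relatives of the fusion genes, for RANKL + LEA against RANKL and for RANKL against No RANKL. Among the other fusion genes 9 are higher and 8 lower with LEA, and 16 are higher and 13 lower with RANKL, of 37 tested.

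Ligands and partners of the surface receptors were measured in the same libraries. Spp1, which encodes the CD44 ligand osteopontin, fell to 254.0 ± 52.8 FPKM with RANKL, against 494.2 ± 65.8 FPKM with No RANKL (SD, n = 2 each, log2 fold change −0.97, SE 0.17, adjusted p = 0.00207, limma). Mmp9, a secreted protease that docks on CD44, rose to 2356 ± 142 FPKM with RANKL, against 12.4 ± 0.221 FPKM with No RANKL, and was lower at 956.7 ± 72.7 FPKM with RANKL + LEA (SD, n = 2 each). Of 10 tested genes in the CD44 list, 4 rose and 2 fell with RANKL, against 17.8% and 17.8% of all genes. With LEA 3 of the 10 were lower (Mmp9, Mmp14 and Hyal1), against 1.77% of all genes. The call of Hyal1 ended without RANKL replicate 1 or either LEA library (highest limma adjusted p 0.12). The hyaluronan synthases Has1, Has2 and Has3 did not pass the filter. Of the 7 tested partners of CD9 and CD81, 3 rose and 3 fell with RANKL, against 17.8% and 17.8% of all genes. Ptgfrn, a direct partner of both, averaged 1.64 ± 0.0219 FPKM with RANKL and 0.197 ± 0.0346 FPKM with No RANKL, whereas Igsf8, another direct partner, averaged 36.5 ± 4.86 FPKM with RANKL and 69.3 ± 1.38 FPKM with No RANKL (SD, n = 2 each). Ptgfrn passed the filter only through its libraries with RANKL, which favours a rise. Of these 7 only Cd36 was called with LEA. Downstream of SIRPα, the phosphatase genes Ptpn6 and Ptpn11 were not called in any comparison, with Ptpn6 at 153.1 ± 19.4 FPKM with RANKL + LEA, 148.9 ± 13.5 FPKM with RANKL and 106.8 ± 9.02 FPKM with No RANKL (SD, n = 2 each). Thbs1, a thrombospondin that binds CD47, fell to 0.752 ± 0.0163 FPKM with RANKL, against 1.60 ± 0.121 FPKM with No RANKL (SD, n = 2 each, adjusted p = 0.00526, limma). This call ended with a pseudocount of 1 FPKM. Sirpb1a rose, a call that ended without No RANKL replicate 1 or either RANKL library (highest limma adjusted p 0.178), with a pseudocount of 1 FPKM, or with no filter on low values. None of the 5 tested genes of this list was called with LEA.

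Transcription factors that act on Dcstamp, Ocstamp or other osteoclast genes were listed as well. Of 18 tested, 8 rose and 6 fell with RANKL, against 17.8% and 17.8% of all genes. With LEA 1 was higher and 3 were lower, against 4.54% and 1.77% of all genes. Nfatc1, the master factor of osteoclast formation, was at 48.5 ± 9.67 FPKM with RANKL + LEA, 76.6 ± 2.16 FPKM with RANKL and 7.19 ± 1.07 FPKM with No RANKL (SD, n = 2 each). Its lower level with LEA (log2 fold change −0.67, SE 0.16, adjusted p = 0.0412, limma) lost its call without the one or the other RANKL library or without RANKL + LEA replicate 1 (highest limma adjusted p 0.205), and also with no filter (0.12), quantile normalization (0.0731), median ratio scaling (0.0502), the replicate block (0.0562) or no trend (0.0815, all limma adjusted p). The study called genes from its RNA-seq with DESeq2. It also reported lower Nfatc1 RNA with LEA by qRT-PCR in independent experiments, and lower NFATc1 protein by immunoblot. Jdp2, an AP-1 protein, was at 138.2 ± 2.14 FPKM with RANKL + LEA and 236.3 ± 22.6 FPKM with RANKL, and Fosl2, another, at 60.9 ± 8.41 FPKM with RANKL + LEA and 102.4 ± 0.455 FPKM with RANKL (SD, n = 2 each). Both were called lower with LEA. The call of Jdp2 ended without any 1 of these 4 libraries (highest limma adjusted p 0.0681) and that of Fosl2 without the one or the other RANKL library or without RANKL + LEA replicate 1 (highest limma adjusted p 0.0958). Fos was not called with LEA (log2 fold change 0.19, SE 0.14, adjusted p = 0.469, limma). Irf8, a repressor of osteoclast formation, was higher at 10.8 ± 0.178 FPKM with RANKL + LEA, against 6.75 ± 0.864 FPKM with RANKL (SD, n = 2 each), a call that ended without RANKL replicate 2 or either LEA library (highest limma adjusted p 0.0944). With no filter on low values, the LEA calls of Mmp14, Hyal1, Tspan32, Tspan7, Fosl2 and Irf8 ended as well.

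The genes with the closest profiles were sought by the root mean square distance of log2(FPKM + 0.1), centred on each gene's mean, over the 6 libraries. Nearest to Ocstamp was Slc9b2, a sodium/proton exchanger (distance 0.07), followed by Calcr, the calcitonin receptor of mature osteoclasts (0.12). Nearest to Dcstamp were Spint2, a protease inhibitor (0.09), Rtn4r, the Nogo receptor (0.16), and Stap2, an adaptor protein (0.16). Nearest to Tm4sf19 were Steap4, a metalloreductase (0.14), Itgb3 (0.19) and Rasgrp1, an activator of Ras (0.20). Calcr, Rtn4r and Steap4 were at 0 FPKM in both No RANKL libraries, and Stap2 (mean 0.0125 FPKM) and Rasgrp1 (0.053 FPKM) were close to 0 there. Their distances therefore depend on the pseudocount. The profile of Ocstamp, at a mean of 0.209 FPKM with No RANKL, depends on it as well. Among the genes that fell, Adam8 was the third nearest of Cd81 (0.09), and Pilrb1, a paired immunoglobulin-like receptor, was among the nearest of both, at 0.07 from Cd81 and 0.06 from Adam8. Abhd15 was the nearest of Adam8, at 0.04. For Cd9, Cd47, Sirpa and Cd44, the nearest genes lay at 0.01 to 0.05, a range that also held Abhd15. The 3 nearest were Uqcc3, Gpn3 and Tuba1c for Cd9, and 5530601H04Rik, Mllt10 and Polk for Cd47. They were Ppp1r18, Sergef and Crlf2 for Sirpa, and Ocrl, Gpalpp1 and Pphln1 for Cd44. With 3 conditions, many genes share such a profile, and the distances are a description of these 6 libraries.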

How the data were processed

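The authors mapped paired-end reads of an Illumina HiSeq to mm10 with HISAT2 and quantified exons with HOMER, both strands, 1 RefSeq transcript per gene. The library kit is stranded according to the methods, but strand was not used in counting. The deposited table holds their FPKM values for each library. Its other 4 columns hold the authors' gene lists of called genes and were not used. The sources used here give no versions of these tools.

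FPKM + 0.1 was taken to log2, filtered at 0.5 FPKM in at least 2 libraries and analysed over all 6 libraries by limma (version 3.58.1, R 4.3.3, moderated with a trend), with 3 residual degrees of freedom and Benjamini-Hochberg adjustment over the genes tested in each comparison. The fit was tested on simulated data with the same noise for every gene. It recovered 23 of 50 genes changed by a log2 fold of 0.585, and 50 of 50 changed by 1. It also called 19 of 11491 unchanged genes. Depth was recovered from whole-read steps of FPKM times exon length (genes under 3000 bases with up to 20.5 reads, tolerance 0.1 read), and 100% of the values examined were whole. Reads recovered in this way entered voom as an alternative. Motifs, distances and figures were made with Python 3.11.15. Replicates of a condition were separate libraries, since their reads differed by more than sampling noise (chi-square per degree of freedom 24.3 to 43.4).

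The 9 genes, the lists and the rules were chosen with earlier results of these data known. The text names the 9 genes, up to 8 genes of each list with the smallest adjusted p, the 3 nearest profiles of each gene and overlapping genes. Beyond the rule, marker genes are named as examples of their lists, Tm4sf5 and the hyaluronan synthases as genes under the filter, and Cd63 and Rom1 because they were called. All of these were chosen after their values were seen. Some items that these rules name are not reported here. Alternatives covered pseudocount, filter, scaling, replicate block, libraries in the fit, trend, fold limit, voom and each library left out. With 2 libraries per group, exact permutation tests cannot reach 0.05 and outlier tests do not apply.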

Additional observations from a re-analysis of the deposited data

How the results depend on the processing

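For RANKL against No RANKL, 5 of the 9 genes were called, and 7 with no fold limit (Cd47 and Sirpa added). Without a fold limit many genes pass, since 6634 of the 11905 tested had a limma p under 0.05 before adjustment. With 1 library left out, the log2 fold change of Cd47 was 0.47 to 0.63. For RANKL + LEA against No RANKL, 6 were called, 8 with no fold limit (Sirpa and Cd44 added) and 5 with a 2-fold limit (Cd47 lost). Here 5771 of the 11905 genes tested had a limma p under 0.05 before adjustment. The log2 fold change of Cd47 was 0.71 to 0.87 with 1 library left out. For RANKL + LEA against RANKL, 5 of the 9 genes were called, and 2 with no filter on low values or with a 2-fold limit. Under these alternatives the lists had 12 and 9 genes called, against 26. Over all genes, 291 were called with no filter and 248 with the 2-fold limit, against 751. With no trend 4 of the 9 were called. Over all genes 2777 then had a limma p under 0.05 before adjustment, against 2807 in the main fit. With no filter 18561 genes were tested, and the calls of Dcstamp, Cd81 and Adam8 ended. Leaving out 1 library at a time gave 2 to 5 of the 9 genes, 7 to 26 list genes and 141 to 669 genes of the table, with 1 library left in a group and its spread assumed equal to that of the others. With a 2-fold limit, 2390 genes were called for RANKL against No RANKL and 1662 for RANKL + LEA against No RANKL. The sign of Cd9 turned without 1 library, with log2 fold changes of −0.064 to 0.24 for RANKL and −0.026 to 0.23 for LEA, as did that of Sirpa for LEA (−0.12 to 0.068), none of them called. Deviations of libraries with the same replicate number correlated at −0.08, −0.26 and 0.12. Such values cannot tell whether the numbers pair the libraries, since pairs that share little variation would also correlate weakly. With the replicate block the 9 genes kept 5, 5 and 6 calls for RANKL, LEA and RANKL + LEA against No RANKL, and 677 genes were called for LEA. With the No RANKL numbers crossed, an alternative chosen after seeing the data, 963 were called. Counts of low genes are limited by depth, as for Ocstamp without RANKL.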
